A study of Mus musculus with 4 samples.

Results

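The collagen chain genes of the mouse were examined in RNA-seq of sorted lower incisor cells with and without the gene Ptip. They were the protein-coding genes whose symbol is Col, a type number, a and a chain number, which gave 44 of the 55487 genes in the table. All 44 had counts in at least 1 library. There were 2 groups of 2 libraries, all from C57 mice at postnatal day 30. The controls carried floxed Ptip alleles (Ptip f/f) and no Cre, and the knockouts carried the same alleles with Sp7-cre (Ptip f/f;Sp7-cre), where the Sp7 promoter, active in bone-forming and dentin-forming cells, controls Cre. Cells were sorted from lower incisors against CD45, Ter119 and Tie2, surface proteins of leukocytes, red cell precursors and endothelial cells, and the tissue is labelled dental pulp. Deletion is limited to cells with Sp7-cre activity and their descendants, other cells of the sort keep the gene, and loss of Ptip and presence of Cre cannot be told apart.

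Collagens are helices of chains wound around each other, and a collagen type is defined by which chains it combines. Fibrillar collagens build the fibrils of dentin, bone and pulp, with type I the main protein of dentin. FACIT collagens (fibril-associated collagens with interrupted triple helices) sit on the surface of fibrils. Type IV forms the sheet of basement membranes, types XV and XVIII lie at its border, and type VII anchors it to the tissue below. Types VIII and X form networks, type VI forms beaded filaments, and types XIII, XVII, XXIII and XXV span the cell membrane. The 44 genes comprised 11 fibrillar, 9 FACIT, 9 basement membrane, 3 network, 7 beaded filament or related, and 4 transmembrane genes, with Col26a1 in no class.

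The libraries held 15154246 to 19142757 counts. Paxip1, the symbol of Ptip, stood at 28.3 and 44.3 CPM (counts-per-million, with library sizes scaled by the TMM method) in controls 1 and 2, and at 5.69 and 3.98 CPM in knockouts 1 and 2 (edgeR adjusted p = 0.150). Dental mesenchyme markers were counted in every library, with a sum of 1036 to 3896 CPM over 9 genes. So were genes of other cells, since the sum over 9 dental epithelium and ameloblast markers was 22404 to 62063 CPM, most of it from Ambn. Genes of the sort proteins were counted too, with Ptprc (CD45) at 9.25 to 144 CPM and Tek (Tie2) at 21.7 to 81.2 CPM. Nothing in the labels tells whether each library is an animal of its own or a pool, so p-values cover the spread among these 4 samples only, which may be technical. The comparison of the groups is the one the design implies, and its stated subject is tooth development and the Wnt pathway.

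Most tested collagen genes had a lower fitted level in the knockouts, while type IX, type XXV and the X-linked type IV chains were higher. Of the 44 genes, 42 had enough counts to be tested, and for 17 of these both knockouts lay below both controls. This is 40.5% of the tested collagen genes, where 24.9% of all 17128 tested genes were lower in this way. Another 9 genes (21.4%, against 25.8% of all tested genes) were higher in both knockouts, and 16 overlapped between the groups. By sign alone, 32 fold changes were negative and 10 positive, where 49.9% and 50.1% of all tested genes were. The median log2 fold change was -0.84 over the collagen genes and 0.0024 over all tested genes. The median leaned on 1 library, being -0.24 when control 2 was left out. The sign of 8 of the 42 fold changes also turned without control 2. For 24 of 42 genes the fitted fold moved by more than 1.5 times when some library was left out.

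No collagen gene passed the test, which was edgeR's quasi-likelihood F-test with Benjamini-Hochberg adjustment over all tested genes at 0.05. It called 0 collagen genes higher and 0 lower, as it called 0% of all genes in either direction. At an unadjusted p under 0.05, 5 collagen genes were higher (7.32% of all tested genes were) and 8 were lower (9.89% of all). DESeq2 called 4 of the 44 collagen genes higher (Col25a1, Col9a1, Col9a2 and Col9a3), where it called 2.72% of all genes higher. It called 6 lower (Col14a1, Col15a1, Col18a1, Col19a1, Col4a1 and Col5a3), where it called 5.7% of all genes lower. Which library was left out decided whether edgeR called any. Without control 1 it called 4 collagen genes higher (0.496% of all genes) and 7 lower (1.12%). Without knockout 1 it called 3 higher (1.13%) and 5 lower (3.69%). Without control 2 or knockout 2 it called 0 in either direction, where it called 0% of all genes without control 2, and 0.0784% higher and 0.00523% lower without knockout 2. With no low-count filter it called 4 higher (1.43%) and 7 lower (3.2%). In bulk RNA, fewer cells of a type and less RNA per cell cannot be told apart.

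**Figure D1:**
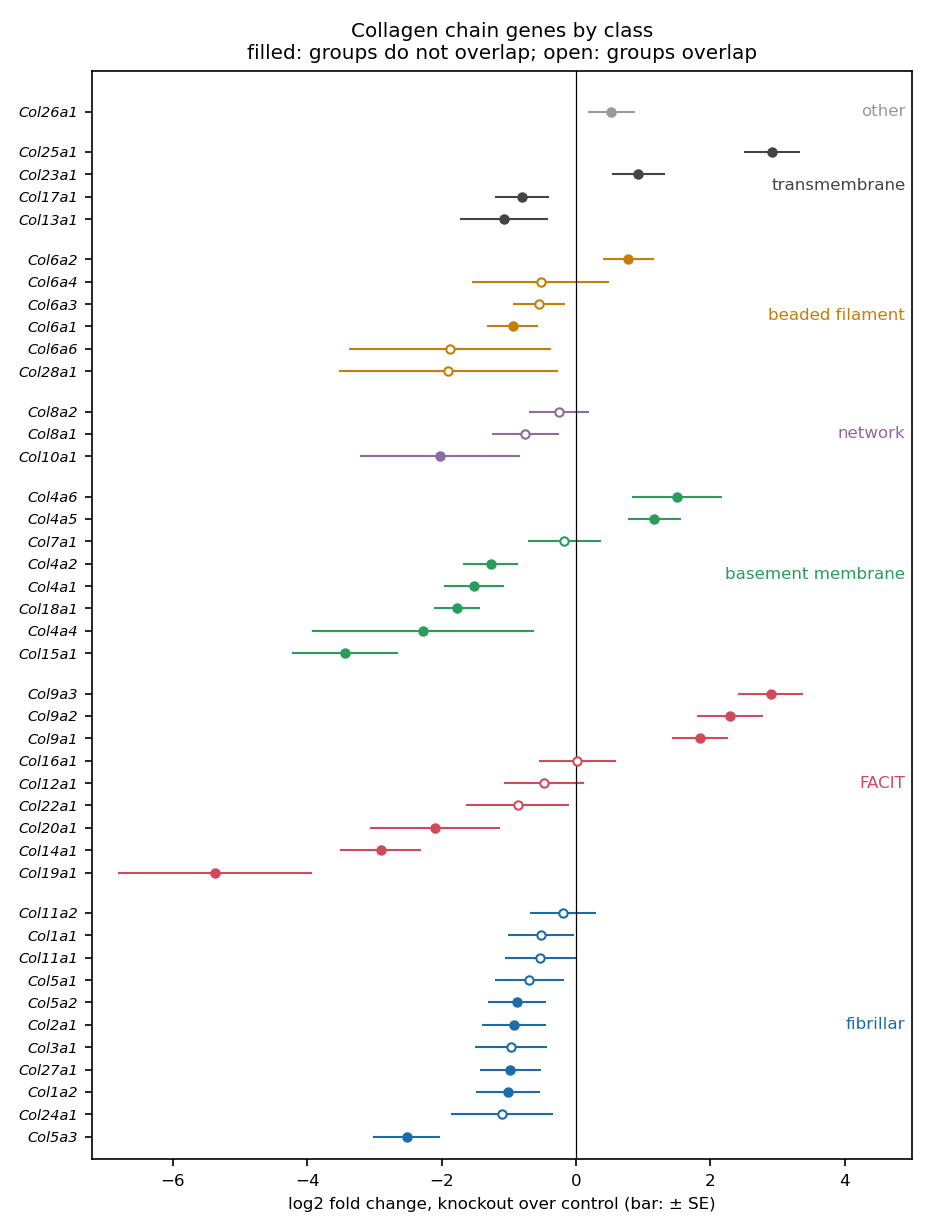
Fitted log2 fold change of each of the 42 tested collagen genes, knockout over control, with its SE as a bar, grouped and coloured by class. Filled points mark the 26 genes whose groups did not overlap. All 11 fibrillar genes lie below 0 (8 of them still do without control 2), while the 3 type IX genes and Col25a1 lie above 1.8.

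Control 2 held the highest level of 28 of the 42 tested genes (66.7%), where it was the highest library for 22.9% of all tested genes. Control 1 was highest for 3 (29.3% of all), knockout 1 for 3 (24.1%) and knockout 2 for 8 (23.6%). Of the 11 fibrillar genes, 10 were highest in control 2. Collagen genes took 7.47% of all counts in control 2, against 3.13% in control 1, 2.59% in knockout 1 and 4.33% in knockout 2. Control 2 likewise held the top level of 7 of 8 periodontal ligament and tendon markers and of 8 of 8 endothelial markers. It was also highest for 5 of 8 pericyte and smooth muscle markers and 4 of 7 tested Schwann cell markers. For odontoblast and osteoblast markers this was 4 of 9, and for red cell markers 3 of 7. It was 2 of 9 for dental epithelium and ameloblast, 1 of 7 for tested leukocyte and 1 of 5 for tested cartilage markers. Among dental mesenchyme markers control 2 was highest for 1 of 9. What these cells added to the collagen values was not tested. The colour map of the libraries shows the same column standing out.

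**Figure D2:**
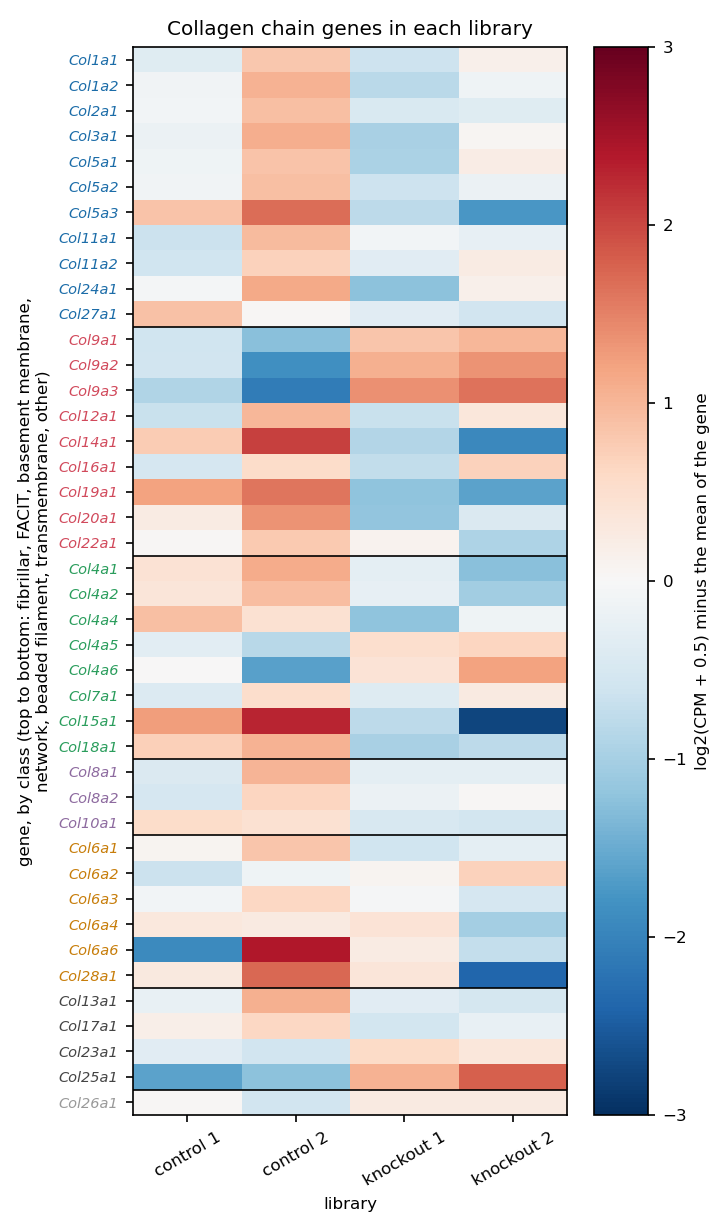
Level of each tested collagen gene (rows, coloured by class as in the plot of fold changes) in each of the 4 libraries (columns), as log2(CPM + 0.5) minus the mean of the gene. Control 2 is the reddest column in the fibrillar rows, and the type IX rows are blue in both controls and red in both knockouts.

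Fibrillar genes made up 87.1% to 94.2% of all collagen counts, and all 11 had a negative fold change, of which 3 turned positive without control 2. The groups overlapped for 6 of them, and the class median was -0.92, or -0.31 without control 2. Col1a1, which encodes the α1 chain of type I, stood at 17241 and 38662 CPM in controls 1 and 2 and at 14440 and 24543 CPM in knockouts 1 and 2. Knockout 2 thus lay above control 1, and the groups overlapped (log2 fold change -0.52, SE 0.49, edgeR adjusted p = 0.653). By counts per kilobase of exon Col1a1 ranked first among the collagens, at 3614 CPM per kb on average, and Col3a1 came next at 1275. Losses of reads in alignment may differ by gene, so this is a rank of counts and not of amounts. Col3a1, the chain of type III in soft tissues such as pulp, had 9737 and 23371 CPM in controls against 5623 and 11343 CPM in knockouts, which overlapped as well (-0.96, SE 0.54, edgeR adjusted p = 0.424). The log2 fold change of Col3a1 was -0.22 without control 2 and -1.51 without knockout 2.

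Col1a2, the α2 chain of type I, did not overlap, with 2556 and 5599 CPM in controls and 1563 and 2482 CPM in knockouts (log2 fold change -1.01, SE 0.48, edgeR adjusted p = 0.339). Knockout 2 was only just below control 1. With unscaled library totals Col1a2 and Col5a2 overlapped, so these separations rest on the scaling. Col5a2, whose type V product starts and limits fibril growth, had 315 and 640 CPM against 221 and 299 CPM, without overlap (-0.88, SE 0.43, edgeR adjusted p = 0.364). Its partner Col5a1 overlapped, at 106 and 211 CPM in controls and 60.3 and 135 CPM in knockouts (-0.70, SE 0.51, edgeR adjusted p = 0.553). Col11a1, a chain of the related type XI, overlapped too, with 44.2 and 134 CPM in controls and 65.4 and 57.9 CPM in knockouts (-0.53, SE 0.53, edgeR adjusted p = 0.678). Without control 2 the log2 fold changes of Col1a1 and Col11a1 turned positive, at 0.15 and 0.45.

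Col5a3, a type V chain of restricted tissue distribution, stood apart from the other fibrillar genes. The gene lies at chr9:20770050-20815067 (GRCm38) and had 82.1 and 145 CPM in controls 1 and 2 and 26.3 and 13.2 CPM in knockouts 1 and 2. Both knockouts lay far below both controls, a fitted 5.74-fold gap (log2 fold change -2.52, SE 0.50), which DESeq2 called (adjusted p = 6.0e-05) and edgeR did not (0.152). The log2 fold change ranged from -3.09 to -2.06 with 1 library left out. Of the remaining fibrillar genes, Col2a1, the main collagen of cartilage, and Col27a1 did not overlap and had fitted levels 1.89-fold and 1.97-fold lower. Col11a2 and Col24a1 overlapped, with log2 fold changes of -0.20 and -1.11, and that of Col11a2 was 0.56 without control 2.

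The FACIT class was split, with 3 genes higher (25.8% of all tested genes were), 3 lower (24.9% of all) and 3 overlapping. Its median of -0.48 became 0.57 without control 2. The 3 higher genes were the chains of type IX, a collagen that joins the surface of type II fibrils in cartilage. Col9a2 stood at 249 and 102 CPM in controls 1 and 2 and at 773 and 942 CPM in knockouts 1 and 2. Col9a3 had 52.1 and 22.6 CPM in controls and 253 and 304 CPM in knockouts. Col9a1 had 17.0 and 10.5 CPM in the controls, and 46.5 and 51.8 CPM in knockouts. In each case both knockouts were far above both controls, and control 2 was the lowest library, opposite to the fibrillar genes.

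The fitted differences were 7.46-fold for Col9a3 (log2 fold change 2.90, SE 0.48), 4.88-fold for Col9a2 (2.29, SE 0.49) and 3.58-fold for Col9a1 (1.84, SE 0.41). None passed in edgeR (adjusted p = 0.150, 0.160 and 0.162), and all passed in DESeq2 (2.1e-06, 0.000280 and 0.00609). With 1 library left out, the lowest log2 fold changes of the 3 genes were 2.39, 1.75 and 1.50, each without control 2. Col9a3 shares 234 exonic bases, 6.07% of its exons, with Tcfl5 on the opposite strand, and reads there cannot be assigned to a strand. The collagen partner of type IX in cartilage, Col2a1, went the other way, with 17.9 and 36.4 CPM in controls and 13.9 and 14.8 CPM in knockouts. Its log2 fold change was -0.92 (SE 0.48, edgeR adjusted p = 0.386), and -0.36 without control 2, so the gap leaned on that library.

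Cartilage markers beside them were uneven. Of 7 markers, 5 were tested, and 3 were higher in both knockouts (25.8% of all tested genes were) and 0 lower (24.9% of all). Their summed level was 337 to 501 CPM in controls and 856 to 1059 CPM in knockouts, most of it from Sox9, a transcription factor also made by other mesenchymal cells. Hapln1, a link protein of proteoglycan aggregates, had 22.0 and 46.9 CPM in controls and 172 and 158 CPM in knockouts. Matn3 was also higher, at 0.973 and 1.34 CPM in controls and 2.61 and 1.51 CPM in knockouts. Acan, the gene of the cartilage proteoglycan aggrecan, overlapped, with 1.74 and 14.6 CPM in controls and 3.59 and 3.70 CPM in knockouts. Cnmd overlapped too, with 27.9 and 5.73 CPM in controls and 107 and 14.0 CPM in knockouts. The untested markers had few counts, with Matn1 at 9 and 10 counts in controls and 0 in each knockout. Snorc had 4 and 19 counts in controls and 9 and 1 in knockouts. Col10a1, the collagen of hypertrophic cartilage, had 15 counts in each control and 5 and 4 counts in the knockouts.

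Among the lower FACIT genes, Col14a1, which binds to fibrils in tendon and skin, had 47.3 and 115 CPM in controls and 14.7 and 6.84 CPM in knockouts. This was a fitted 7.52-fold lower level (log2 fold change -2.91, SE 0.60, edgeR adjusted p = 0.152), with log2 fold changes from -3.55 without knockout 1 to -2.18 without control 2. Col19a1 had 43 and 65 counts in controls 1 and 2, and 3 and 0 counts in knockouts 1 and 2 (edgeR adjusted p = 0.174). The ratio of its summed CPM-scaled counts, control over knockout, was 44.7, with an exact 95% counting interval of 14.9 to 220.1 that covers counting error only. A count of 3 in knockout 2 would be 0.168 CPM. Col19a1 lies next to Col9a1 on chromosome 1 (GRCm38), in the opposite orientation and 9205 bases from its end, so these neighbours differed in opposite directions.

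Col20a1 did not overlap either, at 2.36 and 5.60 CPM against 0.564 and 1.29 CPM. Col16a1, a widespread FACIT collagen, overlapped widely, with 217 and 452 CPM in controls and 183 and 496 CPM in knockouts. Its log2 fold change of 0.020 (SE 0.57, edgeR adjusted p = 0.992) was negative under upper quartile scaling, the stricter filter, the replicate block and limma-voom. Col12a1, which is made in dense connective tissues such as the periodontal ligament, and Col22a1 also overlapped (log2 fold changes of -0.48 and -0.87), and that of Col12a1 was 0.57 without control 2. Markers of the periodontal ligament and of tendon numbered 8. Of these, 5 lay lower (62.5%, against 24.9% of all tested genes) and 1 higher (12.5%, against 25.8%) in both knockouts. The summed level of these markers was 974 and 3064 CPM in controls and 622 and 1357 CPM in knockouts, and their part in the FACIT values was not tested.

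**Figure D3:**
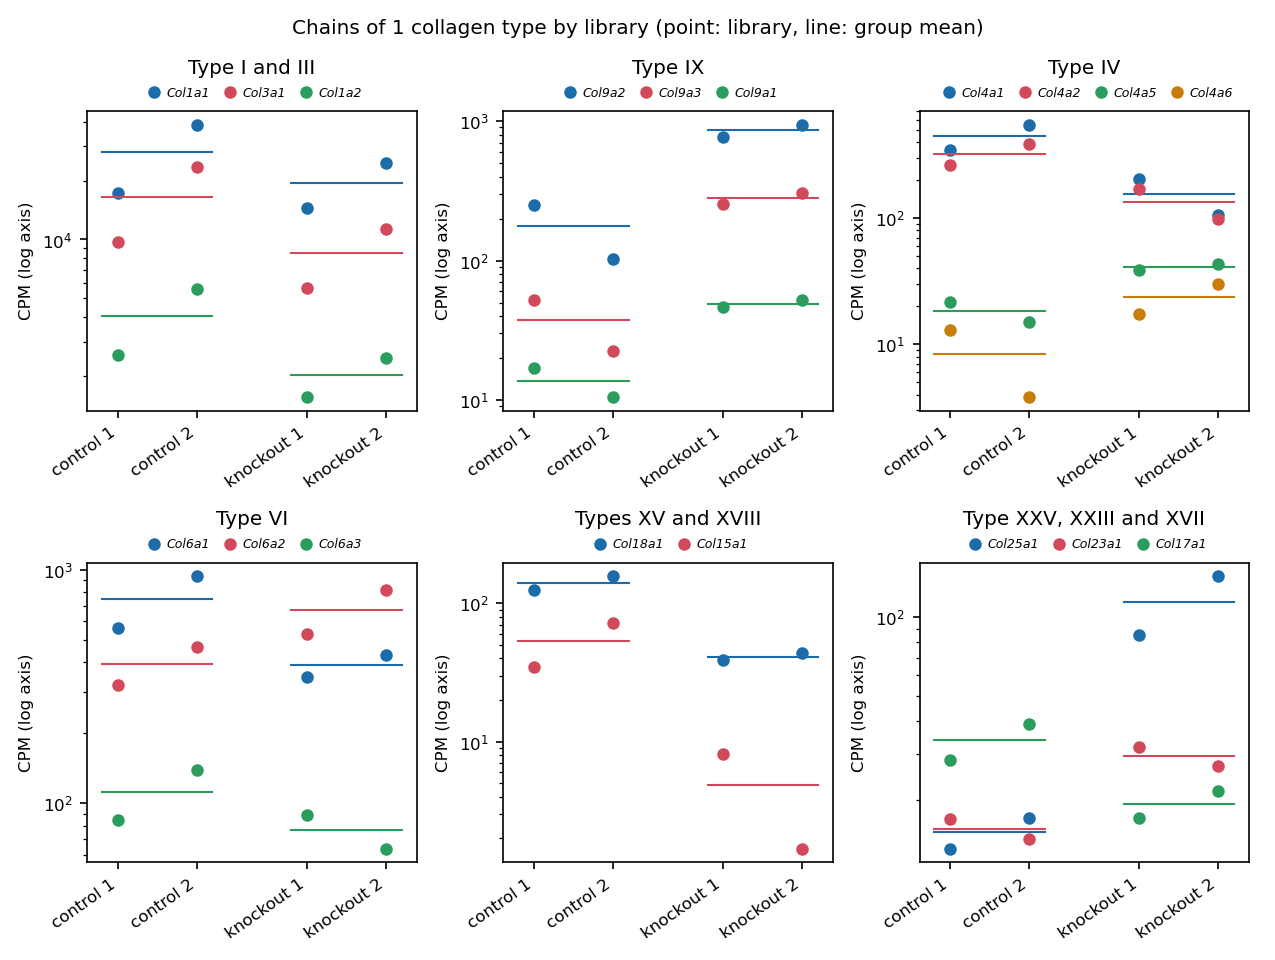
CPM on a log axis of the chains of 6 collagen groups in each library, with points for libraries and lines for group means (n = 2 each). Levels are not divided by gene length, so they compare libraries and not genes. Type IX chains are higher in both knockouts, Col4a1 and Col4a2 are lower while Col4a5 and Col4a6 are higher, and Col6a1 is lower while Col6a2 is higher.

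Basement membrane genes had a median log2 fold change of -1.40 (-0.98 to -1.64 with 1 library left out), but the class was split. Of 8 tested genes, 5 were lower in both knockouts (24.9% of all tested genes were) and 2 were higher (25.8% of all). Col18a1, whose cleaved end is endostatin, had 124 and 158 CPM in controls 1 and 2 and 38.7 and 43.7 CPM in knockouts 1 and 2. The libraries of each group were close, with a fitted 3.42-fold gap (log2 fold change -1.77, SE 0.34) that DESeq2 called (adjusted p = 0.00122) and edgeR did not (0.150). Col15a1, its close relative, had 34.9 and 71.6 CPM in controls and 8.10 and 1.68 CPM in knockouts. It was a fitted 10.9-fold lower (log2 fold change -3.44, SE 0.80, edgeR adjusted p = 0.163), with a wide gap between the knockouts. The log2 fold change of Col15a1 was -4.97 without knockout 1 and -2.67 without knockout 2.

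The type IV chains differed by partner. Col4a1 and Col4a2, which together make the type IV of nearly all basement membranes, were lower in both knockouts. Col4a1 had 343 and 548 CPM in controls and 205 and 106 CPM in knockouts (log2 fold change -1.52, SE 0.45, edgeR adjusted p = 0.187). Col4a2 had 261 and 384 CPM in controls and 170 and 97.8 CPM in knockouts (-1.27, SE 0.41, edgeR adjusted p = 0.206). The genes lie head to head on chromosome 8, and the annotated genes overlap by 22 bases.

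Col4a5 and Col4a6, the X-linked chains found together in selected basement membranes such as those of epithelia and smooth muscle, were higher in both knockouts. Col4a5 had 21.5 and 15.0 CPM in controls and 38.7 and 42.9 CPM in knockouts (log2 fold change 1.16, SE 0.39, edgeR adjusted p = 0.212). Col4a6 had 13.0 and 3.82 CPM in controls and 17.4 and 30.2 CPM in knockouts (1.50, SE 0.67, edgeR adjusted p = 0.314), and its log2 fold change was 2.66 without control 1 and 0.85 without control 2. Neither passed in DESeq2 (adjusted p = 0.132 and 0.164). Both were highest in knockout 2, the library with the least Xist, the RNA of the inactive X, which stood at 58.3 and 211 CPM in controls and 116 and 5.83 CPM in knockouts. Ddx3y, a Y-linked gene, stood at 43.1 and 8.85 CPM in controls and 1.999 and 117 CPM in knockouts, so reads of both sex-linked genes were in all libraries in unequal amounts. The labels give no sex, and its part in the collagen values was not tested.

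The Col4a6 and Col4a5 genes also lie head to head, 1308 bases apart. The bases before their starts are shown because both chains were higher in the knockouts, unlike the head-to-head pair Col4a1 and Col4a2. A further such pair, Col4a4 and Col4a3, lies 71 bases apart, with Col4a4 lower and Col4a3 too low to test. Sequences are from RefSeq (GRCm38.p6), which held windows for 35 of the 44 collagen genes. They run 5′ to 3′ on the strand of each gene, without annotated exons, and capitals mark a GC box (GGGCGG) or a CCAAT box (CCAAT) on either strand. The first is chrX:141474077-141474326 on the minus strand and the second chrX:141475169-141475384 on the plus strand. The full 250-base window of Col4a5 also holds 1 GC box, in the 34 exonic bases left out of the printed sequence.
Col4a6: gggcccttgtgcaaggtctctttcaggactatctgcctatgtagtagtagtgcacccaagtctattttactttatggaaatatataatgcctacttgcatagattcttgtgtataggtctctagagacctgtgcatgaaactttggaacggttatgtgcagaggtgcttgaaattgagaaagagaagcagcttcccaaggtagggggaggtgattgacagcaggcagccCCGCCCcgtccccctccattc
Col4a5: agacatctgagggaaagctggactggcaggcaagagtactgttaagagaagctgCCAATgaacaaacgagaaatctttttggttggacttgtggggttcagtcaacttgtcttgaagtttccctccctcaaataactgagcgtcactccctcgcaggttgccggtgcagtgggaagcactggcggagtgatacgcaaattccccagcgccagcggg

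Markers of other cells with basement membranes are set beside these values. Over all tested genes, 24.9% were lower and 25.8% were higher in both knockouts. For 4 of 8 endothelial markers both knockouts lay below both controls, and 0 lay above, with a summed level of 698 and 1124 CPM in controls and 573 and 537 CPM in knockouts. Of 7 tested Schwann cell markers, 4 were lower and 2 higher, with sums of 794 and 1242 CPM against 443 and 428 CPM, and Foxd3 had 8 counts in control 2 and none in the other libraries. Pericyte and smooth muscle markers had 3 of 8 lower, with sums of 819 and 1383 CPM in controls and 489 and 1252 CPM in knockouts. Among 9 epithelial and ameloblast markers, 6 were lower and 0 higher, with sums of 62063 and 22404 CPM in controls and 34591 and 41560 CPM in knockouts. Most of each sum came from Ambn, which overlapped, at 52583 and 18171 CPM in controls and 31001 and 41111 CPM in knockouts. Amelx, by contrast, had 7421 and 2410 CPM in controls and 2395 and 80.0 CPM in knockouts. The part of these cells in the type IV, XV and XVIII values was not tested.

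The other basement membrane genes were Col7a1, Col4a4 and Col4a3. Col7a1, the anchoring fibril gene of stratified epithelia, overlapped, with 9.18 and 18.1 CPM in controls and 9.28 and 14.9 CPM in knockouts. Col4a4 had 24 and 17 counts in controls and 0 and 10 counts in knockouts. Its partner Col4a3 was too low to test, with 3 and 32 counts in controls and 5 and 0 counts in knockouts.

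The network genes Col8a1 and Col8a2, best known from vessel walls and from the corneal endothelium, overlapped between the groups. Col8a1 had 91.2 and 249 CPM in controls and 101 and 101 CPM in knockouts (log2 fold change -0.76, SE 0.50, edgeR adjusted p = 0.4997). Col8a2 had 45.6 and 102 CPM in controls and 57.0 and 67.0 CPM in knockouts (-0.25, SE 0.45, edgeR adjusted p = 0.840). Only control 2 lay above the knockouts, and without it both log2 fold changes were positive, at 0.11 and 0.41. Col10a1, the third network gene, had low counts, given above beside the cartilage markers, and the class median of -0.76 became 0.11 without control 2.

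Type VI chains, whose α1, α2 and α3 chains assemble into 1 molecule in most tissues, went in different directions. Col6a1 had 562 and 937 CPM in controls 1 and 2 and 348 and 430 CPM in knockouts 1 and 2. Col6a2 had 321 and 464 CPM in controls and 531 and 814 CPM in knockouts. Neither overlapped between the groups, and the log2 fold changes were -0.95 (SE 0.38, edgeR adjusted p = 0.273) and 0.78 (SE 0.38, adjusted p = 0.363). Col6a3 overlapped, with 84.9 and 139 CPM in controls and 88.8 and 63.8 CPM in knockouts (-0.55, SE 0.39, edgeR adjusted p = 0.531). Col6a1 and Col6a2 lie in the same orientation on chromosome 10, with 85161 bases between them. The rarer Col6a4, Col6a6 and Col28a1 overlapped at 0 to 13.7 CPM, and Col6a5, with 0 to 47 counts, was not tested.

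The transmembrane class held the collagen gene with the smallest p. Col25a1, a membrane collagen studied in brain and in the innervation of muscle, had 13.1 and 17.1 CPM in controls 1 and 2 and 85.4 and 143 CPM in knockouts 1 and 2. Both knockouts were far above both controls, a fitted 7.56-fold gap (log2 fold change 2.92, SE 0.42) that DESeq2 called (adjusted p = 5.4e-07) and edgeR did not (0.145). The adjusted p was 0.0376 in edgeR with the replicate number as a block, under which Col25a1 was the 1 collagen gene called of 42, where 0.344% of all genes were called higher and 1.08% lower. The log2 fold change ranged from 2.55 to 3.25 with 1 library left out.

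Col25a1 and Col9a1 are the members for which the promoter is shown next, as genes higher in the knockouts from different classes. The windows are the 250 bases before a RefSeq start (GRCm38.p6), chr3:130180595-130180844 and chr1:24177360-24177609, both on the plus strand, marked as above. The annotated Col25a1 gene spans chr3:130131501-130599877, so this start lies inside it.
Col25a1: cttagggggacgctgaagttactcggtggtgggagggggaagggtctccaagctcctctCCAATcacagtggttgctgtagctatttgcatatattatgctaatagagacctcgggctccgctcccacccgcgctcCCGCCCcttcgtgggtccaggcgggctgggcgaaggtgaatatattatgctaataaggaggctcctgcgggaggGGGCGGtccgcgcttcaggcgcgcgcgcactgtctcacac
Col9a1: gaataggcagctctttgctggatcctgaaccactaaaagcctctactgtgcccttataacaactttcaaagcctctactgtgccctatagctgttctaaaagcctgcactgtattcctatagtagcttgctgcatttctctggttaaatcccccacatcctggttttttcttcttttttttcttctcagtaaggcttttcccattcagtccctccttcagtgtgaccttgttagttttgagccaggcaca

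The Col25a1 window holds 2 GC boxes and 1 CCAAT box, and the Col9a1 window shown holds neither. A further RefSeq start of Col9a1, with the window chr1:24194953-24195202, holds 1 CCAAT box and is not shown. The letters TATAAA of the TATA box, ACAAAG, which SOX and TCF factors share, and ACCACA of RUNX factors were also searched on both strands and were in none of the 4 windows. Over 38 collagen windows of 250 bases, 57.9% held a GC box, against 32.7% of 32851 windows of all genes. The CCAAT box was in 34.2% and 33.8%, TATAAA in 13.2% and 12.4%, ACAAAG in 10.5% and 16.5%, and ACCACA in 7.89% and 14.0%. A match is a run of letters and not a bound site.

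The other 3 transmembrane genes did not overlap between the groups either. Col23a1 was higher, with 16.9 and 14.2 CPM in controls and 32.0 and 27.0 CPM in knockouts (log2 fold change 0.92, SE 0.39). Col17a1, the hemidesmosome collagen of epithelial cells, was lower, with 28.5 and 39.1 CPM in controls and 17.1 and 21.6 CPM in knockouts (-0.80, SE 0.40, edgeR adjusted p = 0.365). Col13a1, found at cell junctions and at nerve-muscle contacts, was lower as well (-1.07, SE 0.66). Col26a1 had 142 and 93.2 CPM in controls and 169 and 169 CPM in knockouts (0.52, SE 0.35, edgeR adjusted p = 0.512). None of these 4 passed in edgeR or DESeq2.

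The ratio of partner chains within a library needs no scaling between libraries, so 13 pairs were compared. The exact two-sided permutation test over samples cannot go below p = 0.333 with 2 against 2 libraries, so none could pass, and the smallest adjusted p over the 13 pairs was 0.542. In 8 pairs the ratios of the groups did not overlap. The share among other gene pairs was not computed, so this count is not read as a result about the chains. Ratios are of counts per kilobase of exon, and with coding length instead every ratio shifts by the same factor in all libraries. Losses of reads in alignment may differ by gene, so ratios compare libraries and do not give the amounts of the chains.

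Col1a1 over Col1a2 was 12.8 in control 1, 13.1 in control 2, 17.5 in knockout 1 and 18.7 in knockout 2. The type I ratio was thus 1.40-fold higher in the knockouts. With coding lengths the ratio was 6.37 and 6.52 in controls and 8.73 and 9.34 in knockouts. Col3a1 over Col1a1 was 0.378 and 0.404 in controls and 0.260 and 0.309 in knockouts, without overlap. These gaps did not depend on control 2, whose ratios lay near those of control 1.

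Col6a1 over Col6a2 showed a wide gap, from 3.32 and 3.84 in controls to 1.24 and 1.005 in knockouts. This is a 3.19-fold lower ratio (difference in mean log2 ratio -1.68), and it stayed between -1.83 and -1.52 with 1 library left out. Col9a3 over Col9a2 was 0.168 and 0.178 in controls and 0.263 and 0.259 in knockouts. Col4a1 over Col4a2 was 1.17 and 1.26 in controls and 1.07 and 0.957 in knockouts, so counts per length of its chains were close in every library. Col15a1 over Col18a1 was 0.311 and 0.502 in controls and 0.231 and 0.0425 in knockouts. The difference in mean log2 ratio for that pair was -1.99, and -0.77 without knockout 2 or -3.22 without knockout 1. In a pair chosen after its values were seen, Col4a1 over Col4a5 was 14.4 and 33.0 in controls and 4.76 and 2.22 in knockouts.

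The remaining ratios were less regular. Col9a1 over Col9a2 was 0.0416 and 0.0628 in controls and 0.0368 and 0.0336 in knockouts, and Col8a1 over Col8a2 was 1.15 and 1.40 against 1.02 and 0.861. The groups overlapped for Col5a1 over Col5a2, Col5a1 over Col1a1, Col11a1 over Col5a1, Col4a5 over Col4a6 and Col6a3 over Col6a1. Of these, Col5a1 over Col5a2 had the smallest difference in mean log2 ratio, at 0.08.

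**Figure D4:**
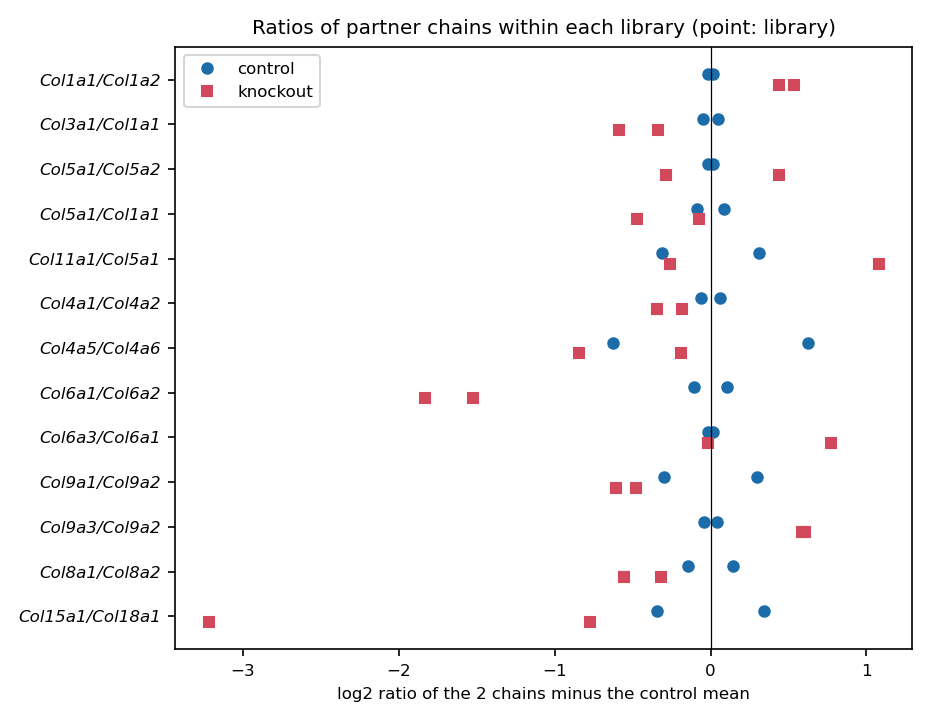
Log2 ratio of the 2 chains of each of 13 pairs in each library, minus the mean of the controls, with circles for controls and squares for knockouts. Control points of Col1a1/Col1a2 and Col9a3/Col9a2 nearly coincide and both knockouts lie to their right, while both knockouts of Col6a1/Col6a2 lie more than 1.5 to the left.

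Genes that fold, process, bind and degrade collagen were read from 5 lists, and none of their genes passed in edgeR. Of the folding, modification and export genes, 12 of 21 were higher in both knockouts (57.1%, against 25.8% of all tested genes) and 3 lower (14.3%, against 24.9%), with a median log2 fold change of 0.44, while the median of the collagen genes was -0.84. With 1 library left out the median of these genes stayed between 0.22 and 0.55. Crtap, a subunit of the prolyl 3-hydroxylase complex, had 116 and 143 CPM in controls and 250 and 261 CPM in knockouts (0.98, SE 0.32). Colgalt2, a collagen galactosyltransferase, had 7.16 and 13.7 CPM in controls and 6.46 and 2.58 CPM in knockouts. Serpinh1, the collagen chaperone HSP47, was close in all libraries, at 2563 and 2590 CPM in controls and 2988 and 3076 CPM in knockouts, and it was chosen after its values were seen.

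Both knockouts lay above both controls for 2 of 12 processing and crosslinking genes and below them for 3 (16.7% and 25%, near the shares over all tested genes), with a median of 0.13. This median and those of the next 3 lists changed sign with the library left out, and ranged here from -0.41 to 0.72. Pcolce, an enhancer of procollagen C-proteinase, had 448 and 556 CPM in controls and 841 and 981 CPM in knockouts. Adamts14, a procollagen N-proteinase, had 7.58 and 9.04 CPM in controls and 0.666 and 1.35 CPM in knockouts. The receptor list had 3 of 10 tested genes higher (30%) and 1 lower (10%; median 0.14, range -0.46 to 0.81). Mrc2, the endocytic collagen receptor, had 40.5 and 49.2 CPM in controls and 132 and 248 CPM in knockouts, and Adgrg1, a receptor for type III collagen, had 573 and 279 CPM in controls and 90.7 and 54.1 CPM in knockouts.

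Among 11 fibril-associated regulators, 3 were higher (27.3%) and 1 was lower (9.09%; median -0.42, range -0.85 to 0.78). Tgfbi, a matrix protein that binds collagen, had 282 and 242 CPM in controls and 1225 and 1674 CPM in knockouts, and Tnxb, the gene of tenascin X, 9.25 and 40.8 CPM in controls and 4.00 and 3.14 CPM in knockouts. Of 10 degradation genes, 2 were higher (20%) and 1 was lower (10%; median 0.28, range -0.19 to 0.94). Mmp14, a membrane-bound collagenase, had 113 and 216 CPM in controls and 230 and 604 CPM in knockouts, and Mmp8, the neutrophil collagenase, 7.72 and 7.38 CPM in controls and 5.84 and 4.60 CPM in knockouts. Crtap, Pcolce and Mmp14 did not pass in DESeq2, while Mrc2, Adgrg1, Tgfbi, Adamts14 and Tnxb did (adjusted p of 0.00433 or less).

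Leukocyte and red cell markers were lower in the knockouts alongside the collagen genes. Among all tested genes, 24.9% were lower and 25.8% were higher in both knockouts. The summed level of 8 leukocyte markers was 627 to 2186 CPM in controls and 122 to 341 CPM in knockouts, with 6 of 7 tested markers lower, and Cd3e had no count in any library. The 7 red cell markers were all lower, with sums of 362 to 376 CPM in controls and 74.9 to 94.3 CPM in knockouts. Odontoblast and osteoblast markers had 3 of 9 higher and 4 lower, with sums of 1310 and 2892 CPM in controls and 1122 and 1999 CPM in knockouts. The sum was highest in control 2, as was Col1a1, although only 4 of the 9 genes were highest there. Dental mesenchyme markers had 7 of 9 higher and 0 lower. The part of these cells in the collagen values was not tested.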

How the data were processed

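Per the labels' protocols, polyadenylated RNA was copied with oligo-dT primers and template switching, amplified in 14 PCR cycles, and 50 ng of cDNA were fragmented with a transposase kit, which marks neither strand nor molecules. The authors deposited whole-number counts per gene, not normalised. Trimming with Trim Galore (0.6.6), the aligner Bowtie2 (version 2.3.5.1) and counting with featureCounts (version 2.0.1) on GRCm38 are named in the submitters' processing notes, while annotation release, strand setting and multiple matches were not given in the sources used here. Symbols, coordinates and lengths came from GENCODE M21, which held 55227 of the 55487 gene IDs.

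The test was edgeR 4.0.16 (R 4.3.3) with TMM scaling, filterByExpr and genotype as the only term, fitted on all 17128 kept genes. It was also run on simulated data with a smaller spread between libraries, which does not show how it performs at the spread seen here. CPM uses TMM-scaled library sizes, and 3 counts correspond to 0.154 to 0.209 CPM. The SE is the log2 fold change divided by the square root of F. DESeq2 1.42.0, limma-voom (limma 3.58.1), other scalings and filters, a replicate block and leaving out libraries were alternatives.

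Full values were given for the 5 collagen genes of smallest p in either direction and for the partner chains. They were also given for the 2 genes with the most counts per kilobase of exon in each class. In each list they were given for the gene with the smallest p in each direction. Members and lists were chosen with earlier results of these data known.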

Additional observations from a re-analysis of the deposited data

How the results depend on the processing

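Without the low-count filter, edgeR called 4 collagen genes higher and 7 lower, but with infinite prior degrees of freedom a gene's own spread did not enter its p. DESeq2 called 4 and 6, and the replicate block 1 and 0. Other scalings, the stricter filter and limma-voom kept 0 in both directions. Col16a1 changed sign under upper quartile scaling (-0.0017), the stricter filter (-0.044), the replicate block (-0.057) and limma-voom (-0.062), and no other of the 27 named collagen genes did so outside the fits that left out a library. The labels name no pairing behind the replicate numbers, and the deviations of control 1 and knockout 1 correlated at 0.145 across genes.

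Leaving out each library in turn gave 0 to 4 collagen genes called higher, 0 to 7 lower, 9 to 14 above and 18 to 33 below the other group, and a median of -1.22 to -0.24. The 4 and 7 calls came without control 1, 3 and 5 without knockout 1, and 0 without control 2 or knockout 2. The 33 genes below the remaining control were without control 1. These fits tested 44 collagen genes, or 42 without control 2. The shares of all tested genes above and below the other group were not computed for these fits. A group of 1 library also separates from the other group more easily by chance than a group of 2. The counts above and below are therefore not read as a result about the collagen genes. Log2 fold changes ranged from -0.97 to 0.15 for Col1a1, -1.09 to 0.45 for Col11a1, -0.83 to 0.63 for Col16a1, -1.28 to 0.11 for Col8a1 and -0.70 to 0.41 for Col8a2. Log2 ratio differences, with libraries left out as an alternative chosen after seeing the data, ranged from -0.29 to 0.44 for Col5a1/Col5a2, -0.26 to 1.08 for Col11a1/Col5a1, -1.14 to 0.11 for Col4a5/Col4a6 and -0.013 to 0.77 for Col6a3/Col6a1. With 1 library left in a group, its spread is taken from the other group. With 2 libraries a group and a biological coefficient of variation of 49.2%, p-values are limited by the spread between libraries, and counts of 3 or fewer give no level.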
